A study of Mus musculus with 19 samples.

Results

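Acetylcholinesterase, its relatives and the main brain nicotinic receptor subunits were followed in mouse hippocampal slices by RNA-seq and ribosome profiling. The genes were taken by symbol and are Ache, Bche, Prima1, Chrna4, Chrna7 and Chrnb2, 6 of 20436 genes in the count tables. Slices came from wild-type male mice, labelled as 28 to 42 days old, and were incubated for 5 min with vehicle (basal) or with 100 µM DHPG, an agonist of group I metabotropic glutamate receptors that induces long-term depression. All slices then received 100 µg/ml cycloheximide, which halts ribosomes on the mRNA. RNA-seq gave 4 basal and 5 DHPG libraries and ribosome profiling gave 5 basal and 5 DHPG libraries, each made from pooled slices of several mice with CA3 left in place, so that the slices hold all hippocampal fields. The labels only number the replicates. Numbers 1 to 5 were read as the study's batches 1 to 5, whose slices kept CA3, and DHPG and basal libraries of 1 number were treated as a pair. The DHPG RNA library of replicate 5 has no basal partner.

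Acetylcholine is released in the hippocampus mainly by fibres from the medial septum and is cleared by hydrolysis. Acetylcholinesterase (Ache) does most of this work, and butyrylcholinesterase (Bche), made largely by glia, hydrolyses acetylcholine and other choline esters. The major brain form of acetylcholinesterase is a tetramer held in the membrane by PRiMA (Prima1), a small transmembrane protein. Nicotinic receptors are pentameric cation channels opened by acetylcholine. Chrna4 and Chrnb2 encode the subunits of the most widespread high-affinity receptor of the brain, and Chrna7 encodes a subunit that forms receptors by itself, with a high calcium permeability, and is prominent in hippocampal neurons.

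The 6 genes lie on 5 chromosomes of the mm10 build. Ache is at chr5:137287519-137294466 on the plus strand. The others are on the minus strand, Bche at chr3:73635808-73708415, Prima1 at chr12:103196908-103242150, Chrna4 at chr2:181018380-181043546, Chrna7 at chr7:63098692-63212569 and Chrnb2 at chr3:89746195-89764632. Exons of Chrnb2 overlap exons of Adar, and exons of Ache overlap those of Gm42456. Whether the authors' RNA counting used the strand is not given in the sources used here, so RNA reads in those stretches could belong to either gene.

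The coding stretches through which these proteins meet each other or acetylcholine are shown to make clear which of the 6 are partners. The measurements below are of whole genes, not of these stretches. The last 40 codons of Ache (exons 4 to 5, chr5:137293337-137294235) and of Bche (exon 4, chr3:73639920-73640039) encode the tail by which each esterase binds the proline-rich part of PRiMA. Capitals mark the 3 tryptophan codons of each tail, and the 30 codons of Prima1 richest in proline (exons 3 to 4, chr12:103202756-103235652, with introns between exons left out) have their 17 proline codons in capitals. All are written 5′ to 3′ along the mRNA, in DNA letters of mm10.
Ache: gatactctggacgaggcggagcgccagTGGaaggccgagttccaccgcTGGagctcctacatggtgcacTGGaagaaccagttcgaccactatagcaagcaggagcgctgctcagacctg
Bche: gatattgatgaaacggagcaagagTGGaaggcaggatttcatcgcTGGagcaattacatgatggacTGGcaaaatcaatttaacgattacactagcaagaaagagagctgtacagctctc
Prima1: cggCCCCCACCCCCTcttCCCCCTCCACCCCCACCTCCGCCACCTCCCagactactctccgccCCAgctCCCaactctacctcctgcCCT

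An adjacent pair of cysteine codons marks the alpha subunits, whose extracellular part holds the main face of the acetylcholine site. Chrna4 has 1 such pair, starting at codon 227 of 629, and Chrna7 has 1, starting at codon 212 of 502. Chrnb2, a beta subunit, has 0 such pairs in 501 codons. The pair is in capitals below, with 12 codons on either side (Chrna4 exon 5, chr2:181029242-181029319, and Chrna7 exons 6 to 7, chr7:63106122-63107552).
Chrna4: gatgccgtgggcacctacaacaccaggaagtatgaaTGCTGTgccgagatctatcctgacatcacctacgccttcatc
Chrna7: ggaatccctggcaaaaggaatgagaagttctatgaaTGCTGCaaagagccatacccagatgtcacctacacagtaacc

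Total counts ran from 4870813 to 7793244 in the RNA libraries and from 5692064 to 22092434 in the RPF libraries (RPFs are ribosome-protected fragments, the pieces of mRNA covered by a ribosome). Levels of 1 gene are given as CPM, counts scaled to library size by edgeR's TMM method. Markers of cell types were measured in the same libraries. Hippocampal principal neuron markers summed to between 3740 and 6230 CPM in RNA, and oligodendrocyte markers to between 2640 and 6420 CPM. Markers of cholinergic neurons were low. Chat, the enzyme that makes acetylcholine, had 10 RPF counts over the 5 basal libraries and 11 over the 5 DHPG libraries, and Slc18a3, the vesicular transporter of acetylcholine, had 12 and 6. Slc5a7, a gene of choline uptake, had more, with 87 and 91. The list of habenula and cholinergic neuron markers summed to between 25.1 and 32.8 CPM in basal RPF libraries, with Nwd2 at a mean of 22.3 CPM. The thalamus list moved with DHPG, with 14 of 14 tested genes higher in RPF and 6 past the threshold. In bulk slices, fewer cells of a type and less RNA per cell cannot be told apart.

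Acetylcholinesterase had the highest mean RPF level per kilobase of the 6 genes in basal slices, and its partner Prima1 the lowest. This level depends on the amount of mRNA as well as on the ribosomes that each mRNA carries. Levels of different genes were compared per kilobase, using the coding length without its first and last 30 nucleotides for RPF and the transcript length for RNA. RPF CPM per kilobase was 56.7 ± 4.44 for Ache (SD, n = 5), 44.4 ± 2.88 for Chrna7, 31.1 ± 2.17 for Chrnb2, 23.5 ± 2.14 for Chrna4, 4.57 ± 0.868 for Bche and 3.72 ± 0.977 for Prima1. The order held in 5 of 5 basal libraries for each neighbouring pair apart from Bche and Prima1, where Bche was higher in 4 of 5 and the ranges overlapped. Among the genes tested in RPF that had a length, RPF per kilobase of Ache stood at percentile 76.5, of Chrna7 at percentile 71.9, and of Bche and Prima1 at percentiles 21.2 and 18.2.

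The order of the mRNAs was the same. RNA CPM per kilobase was 62.1 ± 19 for Ache (SD, n = 4), 36.2 ± 2.64 for Chrna7, 8.26 ± 1.17 for Chrnb2, 6.64 ± 1.14 for Chrna4, 0.665 ± 0.249 for Bche and 0.483 ± 0.318 for Prima1. The ranges of Chrnb2 and Chrna4 overlapped, although Chrnb2 was higher in 4 of 4 libraries, and so did those of Bche and Prima1. Prima1 rested on 10 RNA counts over the 4 basal libraries and 14 over the 5 DHPG libraries, which was too few for it to be tested in RNA. The other 5 genes were tested in RNA, all 6 in RPF, and 5 in both.

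**Figure D1:**
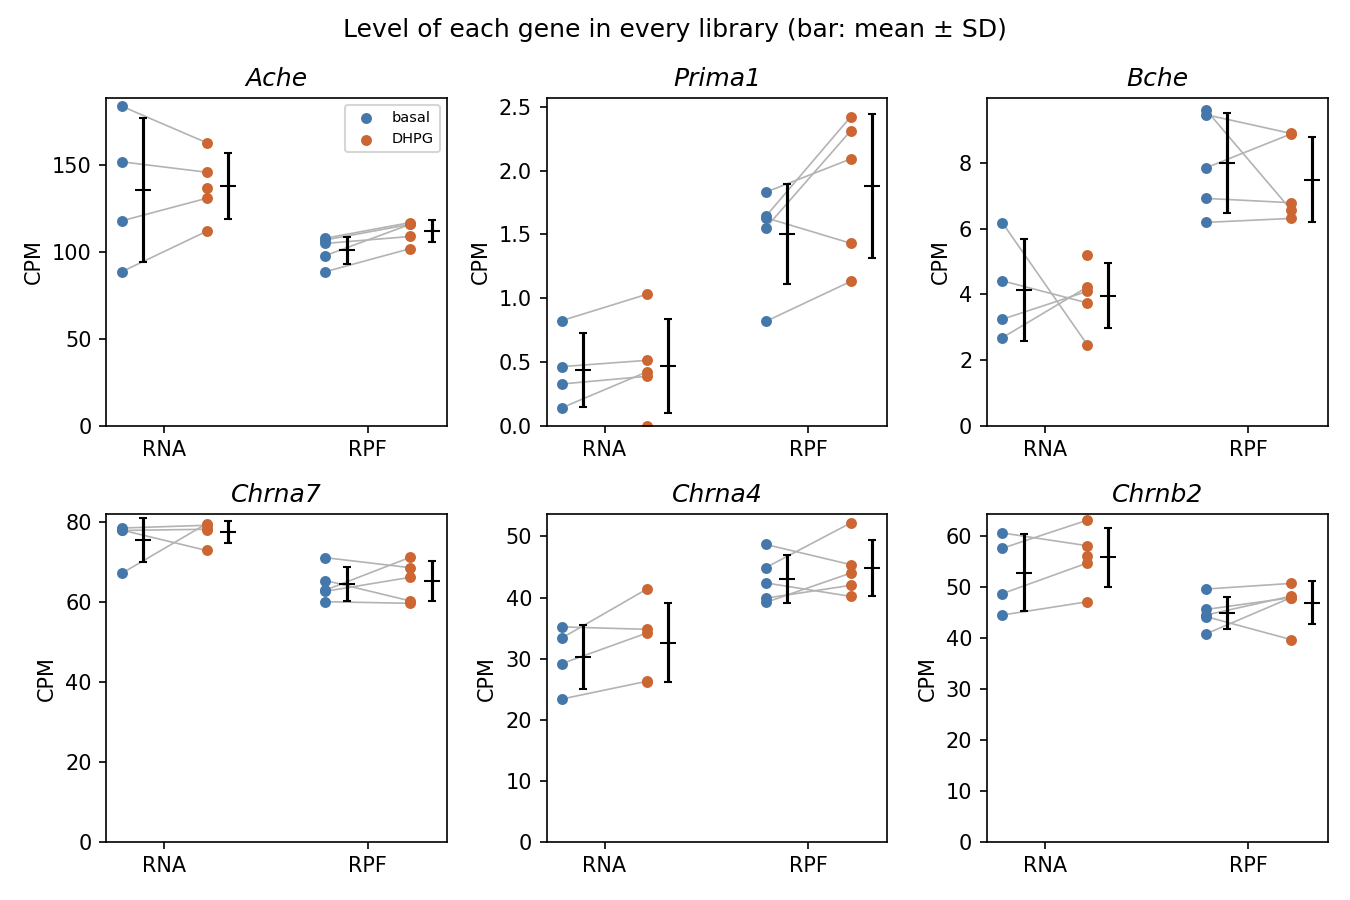
Level of each gene in CPM (vertical axes, from 0) in every RNA and RPF library, with grey lines joining the basal (blue) and DHPG (orange) libraries of a replicate and black bars for the mean ± SD. Ache RNA spreads from 88.7 to 184 CPM over the basal libraries while Ache RPF stays between 88.7 and 108, and all 5 Ache RPF lines slope upward.

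The genes differed in how many RPFs they carried for their RNA. The log2 ratio of RPF to RNA, each per kilobase, was computed in basal replicates 1 to 4. RNA and RPF libraries of 1 number were taken to come from 1 lysate. The median over 12229 genes was 0.91, with quartiles of -0.04 and 1.95. The esterase Ache was low, at 0.15, -0.35, -0.52 and 0.29 in replicates 1 to 4 (mean -0.11 ± 0.39, SD, the 23.5th percentile). Chrna7 was low too, at 0.29 ± 0.10 (the 33.5th percentile).

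The subunit partners Chrna4 and Chrnb2 had nearly the same ratio, 1.84 ± 0.27 and 1.93 ± 0.15, at the 73.0th and 74.5th percentiles. Bche stood at 2.88 ± 0.29 (the 88.7th percentile, from 97 basal RNA counts). Prima1 stood at 3.08 ± 0.67 (the 90.4th percentile), and its 10 RNA counts limit the precision of that value. The ratio depends on the length given to each mRNA. With no length correction the log2 ratios were 1.06 for Bche, 1.90 for Prima1, 0.52 for Chrna4, -0.22 for Chrnb2, -0.23 for Chrna7 and -0.40 for Ache, so Chrna4 and Chrnb2 no longer stood together.

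**Figure D2:**
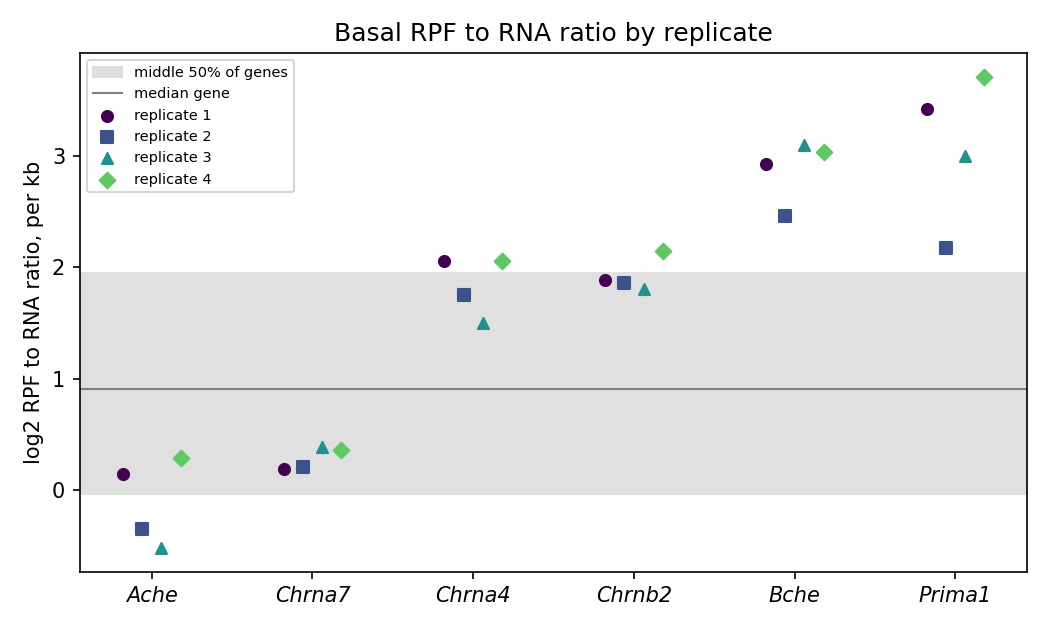
Log2 ratio of RPF to RNA per kilobase (vertical axis) for each gene in basal replicates 1 to 4 (symbols), with the range between the quartiles of 12229 genes shaded and their median as a line at 0.91. Ache and Chrna7 lie below the median in all 4 replicates and the other 4 genes above it.

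The Ache mRNA varied more between basal libraries than its RPFs did. Ache RNA was 118, 152, 184 and 88.7 CPM in basal replicates 1 to 4, a coefficient of variation of 30.5%, against a median of 15.3% for 6524 genes with at least 20 CPM in both assays (the 90.0th percentile). Over the same replicates Ache RPF varied by 8.18%, near the median of 8.14%. The high RNA libraries were replicates 3 and 2 and the low ones 1 and 4. The summed RNA of the principal neuron markers followed the same order, at 4360, 5520, 6180 and 3740 CPM, and so did that of the oligodendrocyte markers, at 4610, 5500, 5620 and 2640 CPM, and of the microglia markers, at 685, 759, 836 and 577 CPM. The interneuron (1190, 1430, 1350 and 1120 CPM), astrocyte, thalamus and endothelial lists were instead highest in replicate 2, and lowest in replicate 4. The list of habenula and cholinergic neurons (57, 59.1, 50.3 and 51.2 CPM) was lowest in replicate 3.

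The base composition of the RNA libraries moved in the order of Ache RNA as well. Ache mRNA is GC-rich, at 60.4% against a median of 50.6% (the 95.4th percentile). Taken over genes (no substitute for replicates), the deviation of a basal RNA library from the others had a Spearman correlation with GC content of -0.561, 0.458, 0.739 and -0.667 in replicates 1 to 4. With each library's trend on GC content removed, a step added after the data were seen, Ache RNA spanned 109 to 153 CPM, its coefficient of variation was 14.1% (percentile 62.3), and the SD of its log2 RPF to RNA ratio was 0.06 in place of 0.39. Chrna4, at 55.7% GC, went from 17.2% to 8.31%, while Chrna7, at 52.5% GC, had 7.30% and 5.09%. Other values were higher, with Bche RNA at 45.3% in place of 37.4% and Ache RPF at 11.1% in place of 8.18%, so that Ache RNA and RPF then varied by 14.1% and 11.1%. The mean ratio of Ache stayed at -0.10.

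DHPG was compared with basal to ask which mRNAs and which ribosome loads change within minutes of receptor activation. None of the 6 genes passed the threshold in RNA, RPF or translation efficiency. Tests were quasi-likelihood F tests in edgeR that kept the replicate pairs as a block. P-values were adjusted by Benjamini-Hochberg across every gene tested, and calls were made at an adjusted p of 0.01 for RNA and 0.05 for RPF and for translation efficiency (TE, RPF relative to RNA). Over all genes, 0.00773% passed in RNA (1 of 12935), 0.22% in RPF (29 of 13208) and 0% in TE (0 of 12691, with 859 or 6.77% at an unadjusted p under 0.05). By ComBat followed by DESeq2, 0 of the genes passed in RNA and 1 in RPF (Ache), and limma called 0 of them in TE. ComBat followed by DESeq2 gave no adjusted p for Bche in RNA, or for Bche, Prima1 and Chrna4 in RPF. On simulated RPF counts, ComBat followed by DESeq2 made more false calls than edgeR with the block. Those counts were drawn from an edgeR fit with the block, a setting that favours edgeR with the block. At an unadjusted p under 0.05, 8.02% of all genes passed in RNA and 10.8% in RPF. Of the 6 genes, 0 of 5 did so in RNA, 1 of 6 in RPF (Ache) and 0 of 5 in TE.

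Ache RPF came nearest to the threshold. It was 107, 98.0, 105, 88.7 and 108 CPM in basal replicates 1 to 5 and 116, 116, 109, 102 and 117 CPM after DHPG. The DHPG library was the higher in 5 of 5 pairs, although the ranges of the groups overlapped and replicate 4 was the lowest of both. The log2 fold change was 0.14 (standard error 0.037, 95% interval 0.07 to 0.22, 1.10-fold), with an unadjusted p of 0.000348 and an adjusted p of 0.083 in edgeR, rank 54 of 13208. The median log2 fold change over all genes was 0.00308.

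The call on Ache turned on the processing. Its adjusted p was 0.0388 with no filter on low counts, 0.0318 without replicate 3 (log2 fold change 0.17) and 0.00143 with ComBat followed by DESeq2. It was 0.177 with the GC trend removed (0.11), 0.515 without replicate 2 (0.11) and 1 with no replicate block. Ache is a gene the study picked out from these same libraries, so its values here are not independent evidence of a direction.

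Ache mRNA spread over a wider range than its RPFs. It was 118, 152, 184 and 88.7 CPM in basal and 131, 146, 163, 112 and 137 CPM in DHPG libraries, so that the basal libraries were both the highest and the lowest. It was higher after DHPG in 2 of 4 pairs. The log2 fold change was 0.06 (standard error 0.079, 95% interval -0.11 to 0.22, adjusted p = 0.888 in edgeR), and with the GC trend removed it was -0.01. The TE of Ache, which tests the difference of both changes, had a log2 fold change of 0.09 (95% interval -0.08 to 0.26, adjusted p = 0.866).

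Prima1, the membrane anchor, had few RPFs. Its counts were 10, 27, 36, 7 and 23 in basal replicates 1 to 5 and 13, 36, 26, 12 and 25 after DHPG, or 1.55, 1.64, 1.63, 0.817 and 1.83 CPM against 2.31, 2.42, 1.43, 1.13 and 2.09 CPM. It was higher after DHPG in 4 of 5 pairs, with replicate 3 the exception and replicate 4 the lowest of both groups. The log2 fold change of 0.26 had a 95% interval from -0.15 to 0.66 (adjusted p = 0.695 in edgeR), which spans no change and a change larger than that of Ache.

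Bche, the second esterase, was 9.47, 9.62, 7.85, 6.19 and 6.92 CPM in basal RPF libraries and 8.90, 6.58, 8.88, 6.31 and 6.79 CPM after DHPG. The groups overlapped over most of their range, and DHPG was higher in 2 of 5 pairs. The log2 fold change was -0.09 (95% interval -0.31 to 0.12, adjusted p = 0.807 in edgeR), and it was 0.06 without replicate 2. In RNA, Bche had 2.68 to 6.18 CPM in basal and 2.47 to 5.21 CPM in DHPG libraries, with a log2 fold change of -0.10 (standard error 0.25) and a reversed sign without replicate 2 (0.23).

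Chrna7 had the RPF estimate nearest to 0. Its RPFs were 62.6, 62.9, 71.0, 60 and 65.3 CPM in basal and 66.1, 71.1, 68.5, 59.6 and 60.2 CPM in DHPG libraries, with DHPG higher in 2 of 5 pairs. The log2 fold change of 0.01 had a 95% interval from -0.07 to 0.10 (0.95-fold to 1.07-fold, adjusted p = 0.943 in edgeR). In RNA it was 78.4, 77.9, 77.8 and 67.1 CPM in basal and 79.1, 72.8, 78.1, 79.5 and 77.9 CPM in DHPG libraries, and all but basal replicate 4 and DHPG replicate 2 lay within 2 CPM of each other (log2 fold change 0.05, adjusted p = 0.913). Its sign depended on the replicates, with -0.04 in RPF without replicate 2 and -0.03 in RNA without replicate 4.

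Chrna4 and Chrnb2, the partners of the high-affinity receptor, had small positive estimates. Chrna4 RPF was 48.7, 44.9, 39.9, 39.2 and 42.4 CPM in basal and 45.4, 52.2, 42.0, 44.0 and 40.2 CPM in DHPG libraries, higher in 3 of 5 pairs (log2 fold change 0.07, 95% interval -0.03 to 0.17, adjusted p = 0.638 in edgeR). Chrnb2 RPF was 40.8, 49.6, 45.6, 44.5 and 44.2 CPM in basal and 47.9, 50.7, 47.9, 48.2 and 39.7 CPM in DHPG libraries, higher in 4 of 5 pairs (0.05, 95% interval -0.05 to 0.14, adjusted p = 0.796). The DHPG library of replicate 5 was the lowest of all 10 for Chrnb2, and the groups overlapped for both genes.

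Chrna4 had the largest RNA estimate of the 5 genes tested. Its RNA was 29.2, 33.4, 35.2 and 23.4 CPM in basal and 34.2, 41.4, 34.8, 26.3 and 26.2 CPM in DHPG libraries, higher in 3 of 4 pairs, with a log2 fold change of 0.17 (95% interval -0.02 to 0.36, adjusted p = 0.662 in edgeR). Chrnb2 RNA was 48.7, 60.6, 57.6 and 44.5 CPM against 54.7, 58.1, 63.1, 47.1 and 56.0 CPM, with a log2 fold change of 0.08 (95% interval -0.08 to 0.25, adjusted p = 0.825). In TE the estimates of Chrna4, Chrnb2, Chrna7 and Bche were -0.10, -0.04, -0.03 and 0.00, with adjusted p from 0.886 to 0.999.

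**Figure D3:**
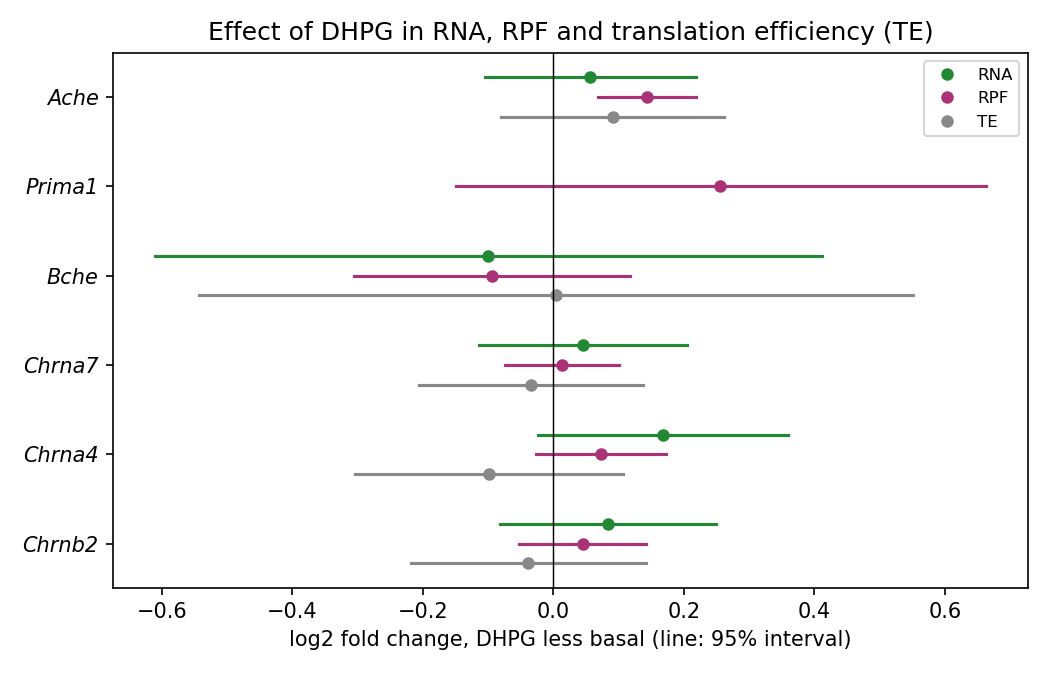
Log2 fold change of DHPG less basal (horizontal axis, points, with lines for the 95% interval) of each gene in RNA, RPF and TE. The interval of Ache RPF, 0.07 to 0.22, is the 1 interval of 16 that leaves out 0, and those of Bche and Prima1 are the widest.

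The balance between partners was compared within each library, which removes any scaling common to both genes. The exact sign-flip permutation test over 5 pairs is two-sided and cannot give a p under 0.0625. Ache had 15.8 times the RPF CPM per kilobase of Prima1 in basal slices and 14 times after DHPG (log2 difference -0.18 ± 0.27, SD over pairs, exact p = 0.188, adjusted over 4 ratios 0.375), higher in 1 of 5 pairs. Ache had 12.5 times the RPF CPM per kilobase of Bche in basal slices and 14.8 times after DHPG (0.24 ± 0.34, exact p = 0.125, adjusted 0.375), higher in 4 of 5 pairs. These are ratios of RPF levels, not of amounts of protein.

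The mean ratios of the receptor subunits differed little. Chrna4 had 0.756 times the RPF CPM per kilobase of Chrnb2 in basal slices and 0.754 times after DHPG (log2 difference -0.00 ± 0.20, exact p = 1, adjusted 1), although the ratio was higher after DHPG in 4 of 5 pairs. Replicate 1 went the other way, and without it the difference was 0.08. Chrna7 had 1.43 times the RPF CPM per kilobase of Chrnb2 and then 1.39 times (-0.04 ± 0.13, exact p = 0.562, adjusted 0.75), higher in 2 of 5 pairs. Each of the 4 log2 differences was smaller than its SD over pairs, which describes the spread and does not test the mean.

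Ache and Prima1, the esterase and its anchor, followed each other over the 10 RPF libraries more closely than any other pair among the 6 genes. The Pearson correlation of their log2 CPM was 0.884, against 0.517 for Prima1 and Chrna7, the next highest of the 15 pairs. Ache with Bche had 0.136 and Chrna4 with Chrnb2 0.371. These points share libraries and batches, so the values are a description.

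Oligodendrocyte markers shared the low replicate 4. Their summed RPF was 8250, 8790, 9020, 4330 and 7800 CPM in basal replicates 1 to 5 and 8950, 10200, 9080, 5020 and 7150 CPM after DHPG. Replicate 4 was thus the lowest of both groups. The same held for Ache, Prima1, Bche and Chrna7, but not for Chrna4 or Chrnb2. Of the 8 markers, 6 were higher after DHPG in RPF and 1 passed the threshold, with a median log2 fold change of 0.09. In RNA 8 of 8 were higher, with a median of 0.165, and 0 passed. An unadjusted p under 0.05 was reached in edgeR by 5 of them, against 8.02% of all genes. By pair, the median RPF difference of the list was 0.12, 0.225, -0.01, 0.21 and -0.09 in replicates 1 to 5. Ache had 0.12, 0.24, 0.05, 0.21 and 0.12 in the same pairs, and Prima1 had 0.53, 0.51, -0.17, 0.40 and 0.18. The part of oligodendrocytes in the values of Ache and Prima1 was not tested. Without replicate 4 the log2 fold change of Ache RPF was 0.13 (adjusted p = 0.195 in edgeR) and that of Prima1 RPF was 0.24 (adjusted p = 0.753).

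Thalamus markers moved with DHPG in the same libraries. Their summed RPF ranged from 237 to 287 CPM in basal and from 238 to 367 CPM in DHPG libraries, and their median log2 fold change was 0.31 in RPF and 0.60 in RNA, where 12 of 12 tested genes were higher. By pair, the median RPF difference of the list was 0.23, 0.65, 0.46, 0.42 and -0.30 in replicates 1 to 5. The Ache RPF difference was 0.12, 0.24, 0.05, 0.21 and 0.12, which includes replicate 5, where the thalamus markers were lower after DHPG. Chrna4, Chrnb2, Chrna7 and Bche were lower in replicate 5, at -0.08, -0.16, -0.12 and -0.03, and Prima1 was higher, at 0.18. The median RPF difference was above 0 in every pair for the astrocyte list (0.0297 to 0.0751) and the microglia list (0.0237 to 0.234). The part of thalamic tissue or of glia in these differences was not tested.

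**Figure D4:**
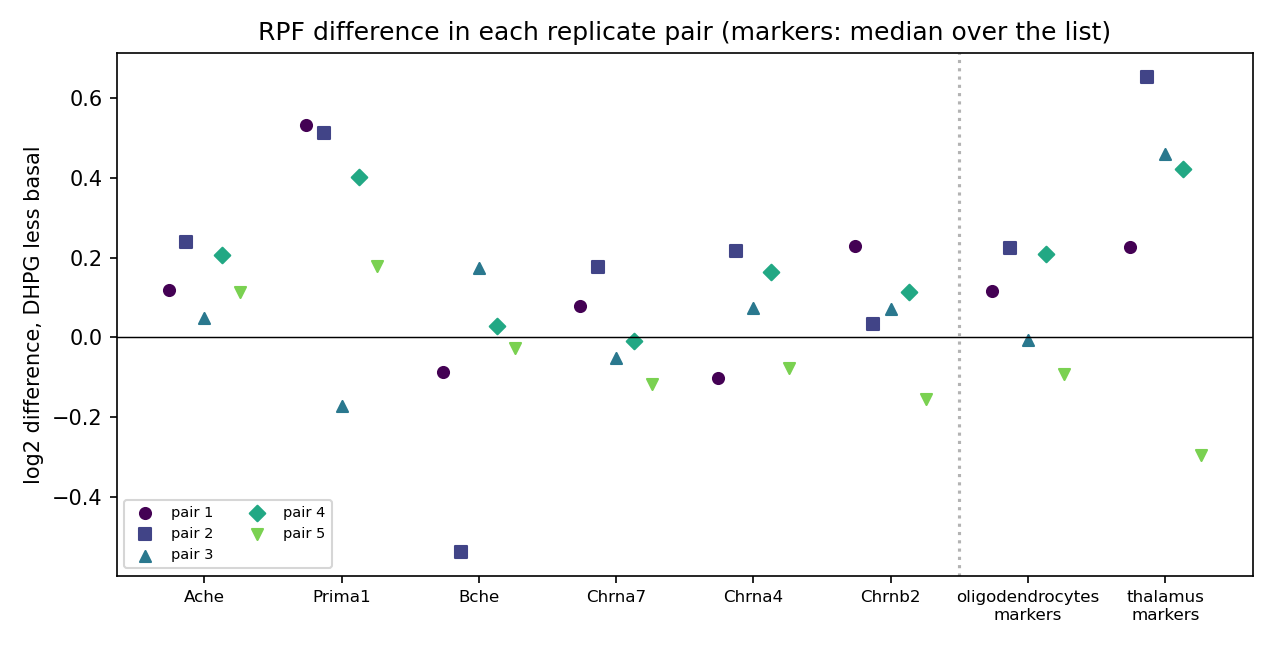
Log2 difference of RPF, DHPG less basal (vertical axis), in each of 5 replicate pairs (symbols) for the 6 genes and, right of the dotted line, the median over the oligodendrocyte and thalamus markers. Of the 6 genes, Ache is the 1 above 0 in all pairs, from 0.05 to 0.24, and the thalamus markers range from -0.30 to 0.65.

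The genes whose RPF levels were most like each of the 6 over the 10 libraries, by Pearson correlation of log2 CPM, were as follows. For Ache they were Zfp488 (0.951), Man2b2 (0.934) and B3gnt1 (0.918), and for Prima1 they were Aplp1 (0.957), Zfp488 (0.946) and Igfbp4 (0.945), so Zfp488 was in both lists. For Bche they were Rpl22l1 (0.947), Cir1 (0.945) and Eif2s2 (0.931). For Chrna7 they were Sox5 (0.956), St7l (0.941) and Itga7 (0.933), for Chrna4 Rpgrip1l (0.912), Atf4 (0.905) and Ctgf (0.903), and for Chrnb2 Sft2d2 (0.948), Rab8a (0.930) and Mettl21a (0.922). These are the highest among correlations with all other genes tested, over few libraries.

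The other genes of cholinergic signaling were read from 5 lists, of which 44 of 45 genes were in the tables. In RPF 30 were tested and 0 passed the adjusted threshold, with 24 higher and 6 lower after DHPG, and a median log2 fold change of 0.06. An unadjusted p under 0.05 was reached by 8 of the higher genes and 1 of the lower, 9 of 30 against 10.8% of all genes. In RNA 26 were tested, 18 were higher, 0 passed (2 at an unadjusted p under 0.05, against 8.02% of all genes) and the median was 0.05. In TE 26 were tested, 14 were higher, 0 passed (0 at an unadjusted p under 0.05, against 6.77% of all genes) and the median was 0.02. The cholinergic lists were tested in edgeR alone. Over all genes, 52.1% were higher in RNA, 51.4% in RPF and 49.5% in TE.

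The muscarinic receptors, the G protein-coupled receptors of acetylcholine, had higher RPF estimates in 5 of 5 genes, with a median of 0.13, and 0 passed. Chrm4, which inhibits adenylate cyclase, had 35.1 ± 1.53 CPM in basal and 38.0 ± 3.47 CPM in DHPG libraries (SD, n = 5), a log2 fold change of 0.13 (adjusted p = 0.317 in edgeR) and was higher in 5 of 5 pairs. Chrm2, of the same class, had 0.19 (adjusted p = 0.384, higher in 5 of 5). Chrm1, the main muscarinic receptor of hippocampal principal cells, had 231 ± 14.5 and 243 ± 7.93 CPM and 0.07 (adjusted p = 0.449).

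The other nicotinic subunits were barely present. Of 13, 4 were tested in RPF and 1 in RNA, and their summed RPF lay between 15.9 and 26.6 CPM, most of it Chrna5. Chrna5, an accessory subunit that joins receptors of Chrna4 and Chrnb2, had 14.9 ± 1.57 CPM in basal and 15.9 ± 2.47 CPM in DHPG RPF libraries (log2 fold change 0.12, adjusted p = 0.599 in edgeR). Its RNA had 7.85 ± 2.10 CPM (n = 4) and 10.8 ± 1.29 CPM (n = 5), higher in 4 of 4 pairs (0.40, adjusted p = 0.555). Chrna1, the alpha subunit of the muscle receptor, had 111 RPF counts in basal and 64 in DHPG libraries, lower in 5 of 5 pairs (-0.67, standard error 0.23, adjusted p = 0.242). Chrnd, another subunit of the muscle receptor, had 0 counts in every library.

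Genes that help receptors fold or that tune them were tested in RPF for 11 of 13 present, with 8 higher, 3 lower and 0 past the threshold. Ric3, a chaperone of Chrna7 receptors, had 77.5 ± 5.90 and 77.9 ± 6.41 CPM (log2 fold change 0.01, adjusted p = 0.945 in edgeR). Lynx1, a membrane-anchored toxin-like protein that dampens nicotinic receptors, had 142 ± 9.52 and 144 ± 10.6 CPM (0.02, adjusted p = 0.901). Ly6e, of the same fold, had 269 ± 21.0 and 286 ± 23.6 CPM and was higher in 5 of 5 pairs (0.08, adjusted p = 0.328). Ly6h, which limits Chrna7 receptors at the surface, had 307 ± 8.86 and 323 ± 19.8 CPM (0.07, adjusted p = 0.437).

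The proteins that anchor the esterases or share their fold gave 3 of 3 tested genes with higher RPF estimates and 0 past the threshold. Colq, the collagen that anchors acetylcholinesterase at the neuromuscular junction, had 35 RPF counts in basal and 46 in DHPG libraries and was not tested. The neuroligins, adhesion proteins with a cholinesterase-like domain, ranged from 0.02 for Nlgn1 to 0.10 for Nlgn2 (adjusted p = 0.355 in edgeR). Of the genes for synthesis, storage and uptake, 5 of 7 tested in RPF were higher, 2 were lower and 0 passed, and the choline transporter-like Slc44a1 had 67.8 ± 7.19 and 74.0 ± 11.2 CPM (0.12, adjusted p = 0.347).

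**Figure D5:**
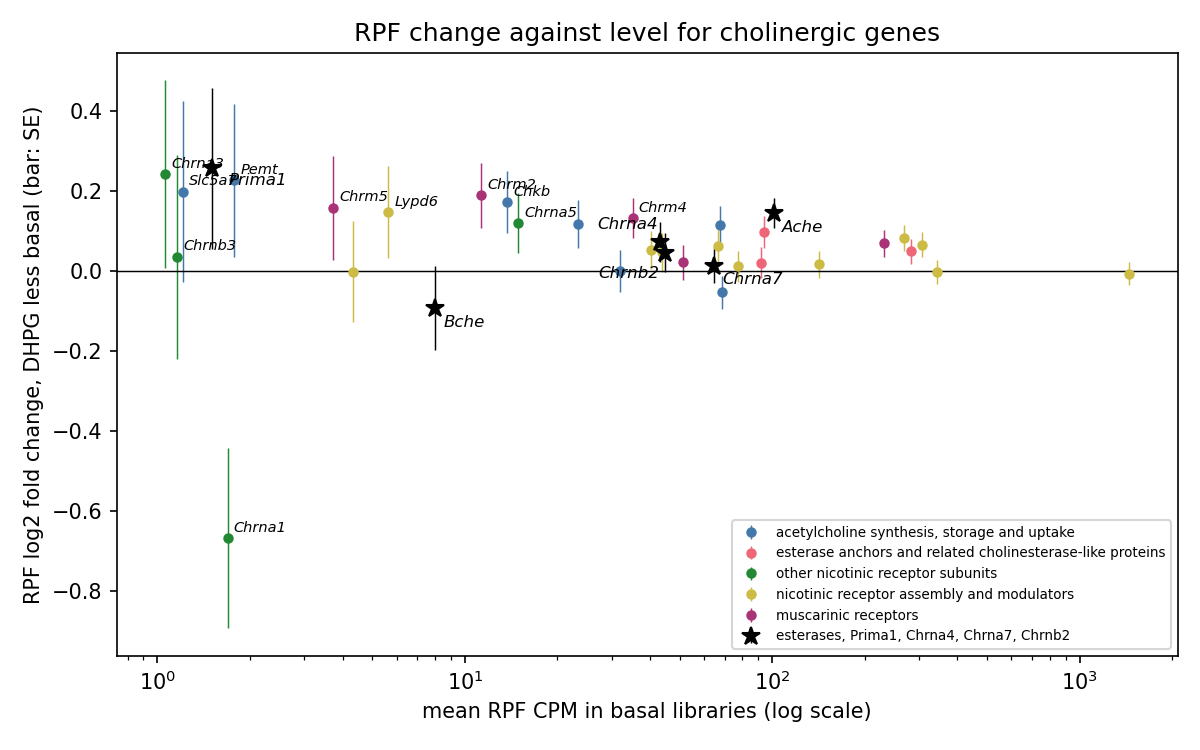
RPF log2 fold change of DHPG less basal (vertical axis, bars for the standard error) against mean basal RPF level in CPM (horizontal axis, log scale) for the tested genes of 5 cholinergic lists (coloured by list) and for Ache, Bche, Prima1, Chrna4, Chrna7 and Chrnb2 (black stars). Ache, at 101 CPM and 0.14, sits above genes of like level, and Chrna1, at 1.69 CPM and -0.67, is the lowest.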

How the data were processed

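The 19 samples are RNA-seq and RPF libraries of wild-type slices. The authors removed rRNA and tRNA reads, aligned to mm10 and collapsed duplicates that shared a molecular identifier. The deposited values are RSEM expected counts, whole numbers without normalization. RPFs were counted on coding sequence without its first and last 30 nucleotides. RNA libraries were depleted of rRNA. The 12 columns of replicates 6 to 8 belong to no sample here and were not used. Expected counts carry counting error, and their split between paralogs cannot be undone. The study's methods call the replicates biological, and the labels only number them.

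Tools were DESeq2 1.42.0, sva 3.50.0, limma 3.58.1 and edgeR 4.0.16 in R 4.3.3. RNA and RPF were each tested with the edgeR quasi-likelihood F test (TMM, filterByExpr, replicate block), and TE as an interaction over all 19 libraries in place of anota2seq. Same-numbered libraries deviated together (correlation 0.308 to 0.741 in RNA, 0.259 to 0.523 in RPF), so the numbers were taken to pair the samples. Per-pair log2 values used a prior count of 2. Lengths, GC content, positions and coding sequences came from GENCODE vM21 on mm10, with a length for 95.4% of genes. Percentiles of level, RPF to RNA ratio and GC content are over tested genes with a length. Those of spread are over tested genes with at least 20 CPM in both assays. The alternatives were other size factors, other filters, no block, DESeq2, ComBat followed by DESeq2, other thresholds, limma for TE, no length correction, library totals, each replicate left out and, added after the data were seen, removal of each library's GC trend. The steps were tested on simulated data, where ComBat followed by DESeq2 made more false RPF calls than edgeR or DESeq2 with the block. The simulated counts were drawn from an edgeR fit with the block, a setting that favours fits with the block.

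The 6 genes, the gene lists and the marker lists were chosen with earlier results of these data known. Other genes were named if they belong to a cholinergic list or were among the 3 most correlated with 1 of the 6 in RPF.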

Additional observations from a re-analysis of the deposited data

Results flagged for a closer look

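In 70 groups of 4 or 5 libraries, 6 had a highest or lowest library set apart from the rest by Dixon's criterion, where chance gives 3.5. Basal replicate 4 accounted for 4 of them. There Chrna7 RNA was 67.1 CPM with the others from 77.8 to 78.4, Prima1 RPF was 0.817 CPM with the others from 1.55 to 1.83, oligodendrocyte marker RPF summed to 4330 CPM with the others from 7800 to 9020, and the log2 ratio of Ache to Prima1 RPF was 4.61 with the others from 3.73 to 3.95. The Prima1 value rests on 7 counts. In DHPG libraries, Chrna7 RNA was 72.8 CPM in replicate 2 with the others from 77.9 to 79.5, and Chrnb2 RPF was 39.7 CPM in replicate 5 with the others from 47.9 to 50.7.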

How the results depend on the processing

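Of all genes, 1 passed in RNA, with 7 under no filter on low counts, 198 under ComBat followed by DESeq2, and 0 with no replicate block, DESeq2 with the block, the GC trend removed or a minimum of 10 counts per library. In RPF 29 passed, with 96 under no filter, 427 under ComBat followed by DESeq2, 8 at a threshold of 0.01 and 0 with no replicate block. In TE 0 passed, with 4 under no filter. With each replicate left out in turn the counts ran from 0 to 22 in RNA (22 without replicate 2), from 3 to 71 in RPF (3 without replicate 2, 71 without replicate 3) and from 0 to 8 in TE. Of the 6 genes, 1 (Ache) passed in RPF under no filter, under ComBat followed by DESeq2 and without replicate 3, and 0 otherwise. DESeq2 with the block gave no adjusted p in RPF for any of the 6 genes, so none could pass there. ComBat followed by DESeq2 gave none for Bche, Prima1 and Chrna4 in RPF or for Bche in RNA.

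Some log2 fold changes that passed no threshold changed sign when replicates were left out in turn. In RNA, Ache ranged from -0.0355 (without replicate 4) to 0.14, Bche from -0.357 to 0.226 (without replicate 2) and Chrna7 from -0.0264 (without replicate 4) to 0.0887. In RPF, Bche ranged from -0.216 to 0.0572 and Chrna7 from -0.0384 to 0.0449, both reversed without replicate 2. In TE, Bche ranged from -0.173 to 0.242 (reversed without replicate 1, 2 or 5, at -0.0468, -0.173 and -0.0046), Chrna7 from -0.126 to 0.0433 (reversed without replicate 4 or 5, the latter at 0.0051) and Chrnb2 from -0.0804 to 0.018 (without replicate 5). The log2 difference of Chrna4 to Chrnb2 ranged from -0.0497 to 0.0792 (without replicate 1). Ache RNA was -0.00695 with the GC trend removed, Bche TE -0.0968 with no replicate block, and limma gave 0.00702 for Chrna7 TE and 0.0319 for Chrnb2 TE. The cause was not tested. Prima1 and Bche are limited by depth, with 10 and 97 basal RNA counts, and intervals cover counting error and the spread between libraries only.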
